A study of Homo sapiens with 4 samples.

Results

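The genes described here are 6 matrix metalloproteinases (MMP2, MMP7, MMP11, MMP14, MMP15 and MMP24) and the 4 tissue inhibitors of metalloproteinases (TIMP1, TIMP2, TIMP3 and TIMP4). They were taken by symbol from a count table of 26364 genes, and all 10 were present. The cells were Ishikawa cells, an established human endometrial adenocarcinoma line, and every library carried the Y537S mutation of estrogen receptor alpha, encoded by ESR1. The labels name 2 mutant clones, each kept for at least 5 days in phenol red-free medium with stripped serum and then treated for 8 h with 10 nM estradiol (E2) or with 0.1% DMSO as vehicle. There were thus 2 DMSO and 2 E2 libraries, made from poly(A)-selected RNA. The columns of the table carry a tag, A4 or B212, that the labels do not link to a clone number, so libraries are named by tag and treatment. Each tag had 1 DMSO and 1 E2 library, so a difference between the tags is one between 2 isolates labelled with the same mutation.

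Matrix metalloproteinases are zinc-dependent proteases that cut collagens, laminins and other proteins of the extracellular matrix and the cell surface. They are made as inactive proenzymes and become active when the propeptide is removed. TIMPs bind to the active site and block it. The endometrium is a tissue in which this balance is known to shift with the menstrual cycle. MMP14, a membrane-anchored protease, binds TIMP2, and the complex is known to capture and activate pro-MMP2.

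RefSeq (GRCh38.p14) start sites were on hand for 8 of the 10 genes, all but MMP2 and TIMP2. The 250 bases before the start were searched on both strands for the AP-1 motif TGANTCA, the GC box GGGCGG, the TATA box TATAAA and the full estrogen response element (GGTCA, 3 free bases, TGACC). The sequences of 5 genes are shown 5′ to 3′, with every match to any of the motifs in capitals. MMP7 is shown as the gene with almost no counts, MMP14 and MMP15 as genes that were lower with E2 in a fit blocked on tag, and TIMP1 and TIMP3 as genes that were lower in B212. On GRCh38.p14 they lie at chr11:102530748-102530997 on the minus strand (MMP7), and on the plus strand at chr14:22836335-22836584 (MMP14), chr16:58025504-58025753 (MMP15), chrX:47582186-47582435 (TIMP1) and chr22:32801455-32801704 (TIMP3).
MMP7: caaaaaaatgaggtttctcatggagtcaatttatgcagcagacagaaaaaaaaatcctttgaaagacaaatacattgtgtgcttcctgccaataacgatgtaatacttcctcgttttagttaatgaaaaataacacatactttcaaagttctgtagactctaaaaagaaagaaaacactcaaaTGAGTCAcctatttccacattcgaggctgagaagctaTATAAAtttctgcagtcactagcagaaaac
MMP14: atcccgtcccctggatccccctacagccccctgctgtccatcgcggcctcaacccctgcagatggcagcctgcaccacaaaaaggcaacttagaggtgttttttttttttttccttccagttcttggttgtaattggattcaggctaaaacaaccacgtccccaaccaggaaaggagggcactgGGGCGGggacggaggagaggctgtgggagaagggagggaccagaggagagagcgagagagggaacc
MMP15: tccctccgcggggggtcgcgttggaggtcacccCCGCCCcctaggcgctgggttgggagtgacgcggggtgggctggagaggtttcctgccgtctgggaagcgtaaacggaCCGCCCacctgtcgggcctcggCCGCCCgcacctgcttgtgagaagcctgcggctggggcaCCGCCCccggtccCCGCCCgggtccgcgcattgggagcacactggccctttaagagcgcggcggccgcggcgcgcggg
TIMP1: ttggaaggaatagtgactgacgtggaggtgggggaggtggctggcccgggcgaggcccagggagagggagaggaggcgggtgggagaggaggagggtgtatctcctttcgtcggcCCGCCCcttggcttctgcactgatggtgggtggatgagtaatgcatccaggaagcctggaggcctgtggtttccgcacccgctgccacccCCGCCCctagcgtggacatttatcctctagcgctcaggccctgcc
TIMP3: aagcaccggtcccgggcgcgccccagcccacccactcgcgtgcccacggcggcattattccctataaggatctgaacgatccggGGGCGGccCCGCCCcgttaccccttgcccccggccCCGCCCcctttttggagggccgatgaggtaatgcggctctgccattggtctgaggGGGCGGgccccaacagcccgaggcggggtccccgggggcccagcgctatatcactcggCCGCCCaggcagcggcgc

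The MMP7 window held 1 AP-1 motif, 67 to 61 bases before the start, and 1 TATA box, 30 to 25 bases before it, and no GC box. The other 7 windows each held at least 1 GC box, with 5 in TIMP3, 5 in MMP15, 3 in MMP11, 3 in MMP24, 2 in TIMP1, 1 in MMP14 and 1 in TIMP4. None of those 7 held the AP-1 or TATA letters, and none of the 8 windows held the full estrogen response element. Of all 35116 windows of the same length, 6.57% held the AP-1 motif, 42.6% the GC box, 10.7% the TATA box and 0.0399% the estrogen response element. A match is a run of letters and was not tested as a binding site.

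The libraries held between 71575816 and 85222856 counts, and between 18358 and 18861 genes had at least 1 count. All 8 markers of endometrial epithelium passed the count filter, and EPCAM, an epithelial surface protein, had 37012 to 49113 counts. Of the markers of other cell types, PECAM1 (endothelium) and CD3E (T cells) had 0 counts in every library, DCN (fibroblasts) had 0 or 1, and PTPRC (leukocytes) had 25 to 37. Other markers on the same lists were present, with 2531 to 9363 counts of COL1A1 and 87 to 290 of THY1 (stroma), 167 to 372 of VWF (endothelium) and 92 to 176 of CD68 (macrophages). In bulk RNA, fewer cells of a type and less RNA per cell cannot be told apart. The labels do not say whether the libraries of a treatment came from separate cultures beyond the clone. P-values thus measure only the spread between these libraries. In the edgeR fits that spread is in large part estimated across genes, as so few libraries leave little for each gene alone. P-values between the tags cover no spread between further isolates.

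The genes described here spanned a wide range of levels. On a scale of counts per 1000000 counts (CPM) per kilobase of transcript, with TMM-scaled libraries and n = 4, TIMP2 was the most abundant at 35.9 ± 4.41 (SD). TIMP1 followed at 16.1 ± 2.29 and MMP14 at 13.6 ± 1.33. The TIMP1 range over the libraries, 13.5 to 18.1, overlapped the MMP14 range, 12.2 to 14.9. MMP15 stood at 3.74 ± 0.533 and MMP24 at 1.12 ± 0.109, each clear of its neighbours. MMP11 at 0.702 ± 0.224, TIMP4 at 0.613 ± 0.173 and TIMP3 at 0.375 ± 0.194 overlapped in their ranges. The last places were held by MMP7 and MMP2.

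Among the secreted proteases, MMP2 (gelatinase A, which digests denatured collagen and basement membrane collagen) was not detectable at this depth. It had 0 counts in 3 libraries and 1 count in the A4 E2 library. A count of 0 allows up to 3 counts, which is 0.0359 to 0.0419 CPM in the 3 libraries with 0 counts. MMP7 (matrilysin, a small protease known from glandular epithelium) had 1 and 6 counts in A4 (DMSO, then E2) and 3 and 2 counts in B212. Neither gene passed the count filter, so 8 of the 10 members were tested. MMP2 mRNA was thus near 0 in cells in which MMP14 and TIMP2 were among the 3 most abundant members.

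**Figure D1:**
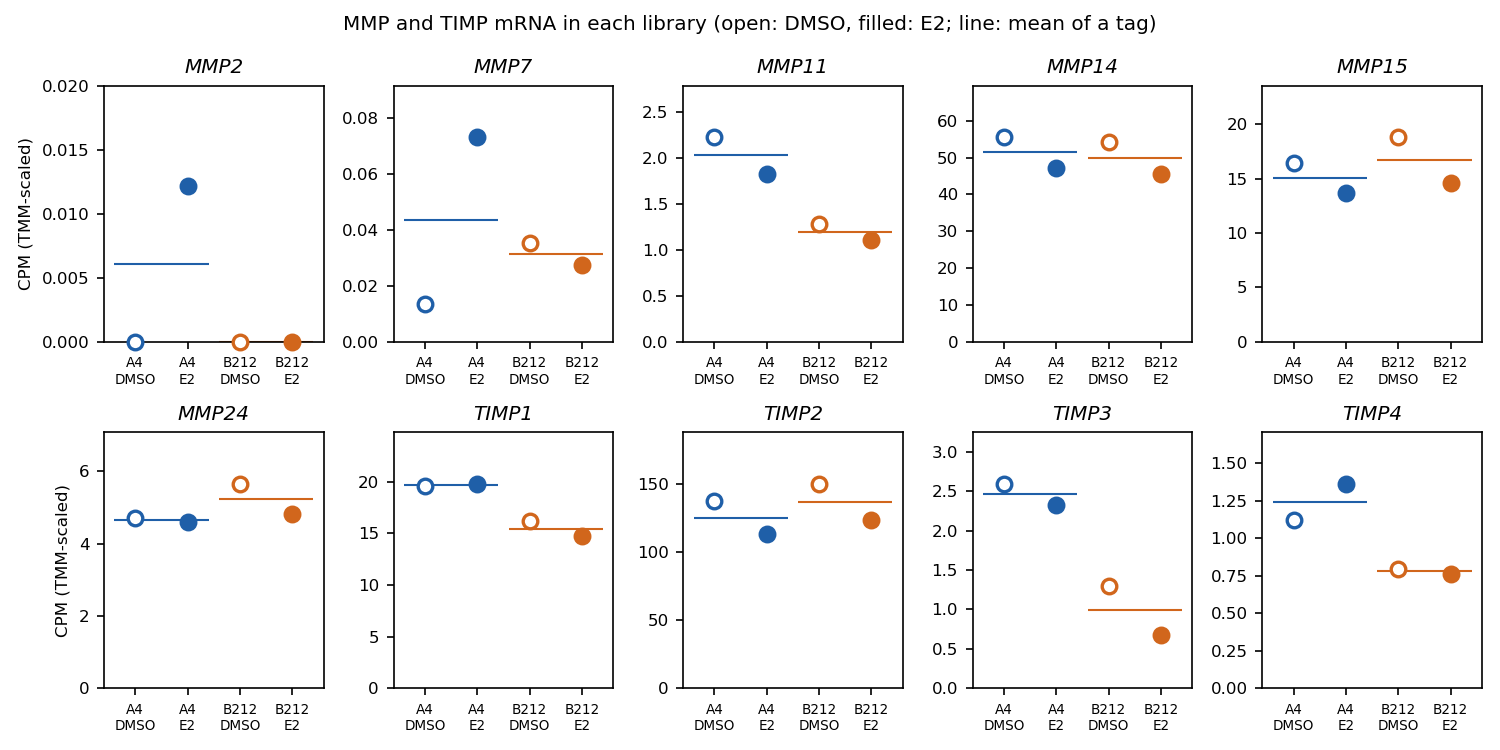
Level of each of the 10 genes in each library, in TMM-scaled counts per 1000000 counts (CPM), with open circles for DMSO, filled circles for E2 and a line at the mean of each tag. MMP14, MMP15 and TIMP2 are lower in both E2 libraries than in both DMSO libraries. MMP11, TIMP1, TIMP3 and TIMP4 are lower, and MMP24 is higher, in both B212 libraries than in both A4 libraries. MMP2 and MMP7 stay under 0.08 CPM. Of all genes tested, 67.5% did not overlap between the tags and 25.0% did not overlap between the treatments.

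Differences between the tags, which the study's groups do not name, were set apart from those of treatment. TIMP3, TIMP4, TIMP1 and MMP11 were lower in B212 than in A4, by 2.52-fold, 1.58-fold, 1.27-fold and 1.70-fold. MMP14, MMP15, MMP24 and TIMP2 did not pass the threshold. So 4 of the 8 tested members were called, 0 higher and 4 lower, by edgeR's quasi-likelihood test with treatment as a covariate and a Benjamini-Hochberg adjusted p under 0.05. By the same rule 51.0% of all 15599 genes tested were called, 25.2% higher and 25.8% lower in B212, so the share of members called was close to the background. With library size alone as the scaling the split over all genes was 4761 higher and 3176 lower, where the TMM scaling gave 3927 and 4023. Median log2 fold changes were -0.20 over the 8 members and 0.0042 over all genes.

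TIMP3 is the TIMP that binds to the matrix and also inhibits ADAM17. It had 2.59 CPM (DMSO) and 2.33 CPM (E2) in A4, against 1.30 and 0.682 CPM in B212, from 190, 191, 111 and 50 counts. Both B212 libraries were below both A4 libraries. Its fitted log2 fold change by edgeR was -1.34 ± 0.21 (SE, adjusted p 2.18e-05). TIMP3 kept its call without any 1 library, when the treatment term was also dropped, with values of -0.92 to -1.87.

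TIMP1, a soluble inhibitor of most secreted MMPs, had 19.6 and 19.8 CPM in A4 (DMSO, then E2) and 16.2 and 14.7 CPM in B212. The tags did not overlap. By edgeR it differed by -0.35 ± 0.090 on the log2 scale (SE, adjusted p 0.00301). TIMP4, the TIMP known chiefly from heart and brain, had 1.12 and 1.37 CPM in A4 and 0.797 and 0.764 CPM in B212, from 82, 112, 68 and 56 counts. The log2 difference in the edgeR fit was -0.66 ± 0.23 (SE, adjusted p 0.0222). TIMP2, the partner of MMP14, had 137.5 and 113.4 CPM in A4 and 150.3 and 123.6 CPM in B212, so the tags overlapped. Its difference was 0.13 (95% interval -0.016 to 0.27), with an edgeR adjusted p of 0.129. TIMP2 was past the threshold and higher in B212 with library size alone as the scaling (0.19, adjusted p 0.0245) and with a smooth dependence on transcript length and GC removed (0.19, adjusted p 0.00670).

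MMP11 (stromelysin-3, known from the stroma of carcinomas and activated inside the cell by furin) had 2.23 and 1.83 CPM in A4 and 1.28 and 1.10 CPM in B212. Its counts were 163, 150, 109 and 81, and the tags did not overlap. In the edgeR fit MMP11 differed by -0.77 ± 0.19 (log2, SE, adjusted p 0.00229). In the fibroblast and stroma list, 3 of 8 markers were called lower in B212 (COL1A1, COL1A2 and COL3A1), 1 was called higher (THY1), and 3 fell under the count filter. The summed level of that list was 96.0 to 132.2 CPM in A4 and 38.6 to 46.7 CPM in B212, most of it COL1A1, while DCN and LUM had at most 5 counts. The endothelial list summed to 2.34 to 3.74 CPM in A4 and 4.11 to 5.13 CPM in B212, with 2 of 5 markers called higher. In the epithelial list 4 of 8 were called higher and 1, PGR, was called lower. The part of these markers in the MMP11 and TIMP differences was not tested.

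The membrane-type proteases among the members, MMP14, MMP15 and MMP24, did not separate the tags beyond their error. MMP14 (MT1-MMP, a collagenase at the cell surface) had 55.5 and 47.3 CPM in A4 and 54.2 and 45.6 CPM in B212. Its difference was -0.044 with a 95% interval of -0.20 to 0.11, and its sign turned with library size alone (0.023) and when that dependence was removed (0.017). MMP15 (MT2-MMP) differed by 0.14 (-0.048 to 0.33), from 16.5 and 13.7 CPM in A4 against 18.8 and 14.6 CPM in B212. MMP24 (MT5-MMP, known from neurons) had 4.71 and 4.61 CPM in A4 and 5.66 and 4.82 CPM in B212. Its tags did not overlap, yet the difference of 0.17 (-0.099 to 0.43) missed the threshold (edgeR adjusted p 0.291). Across all genes tested, 67.5% had tags that did not overlap, against 5 of the 8 members.

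**Figure D2:**
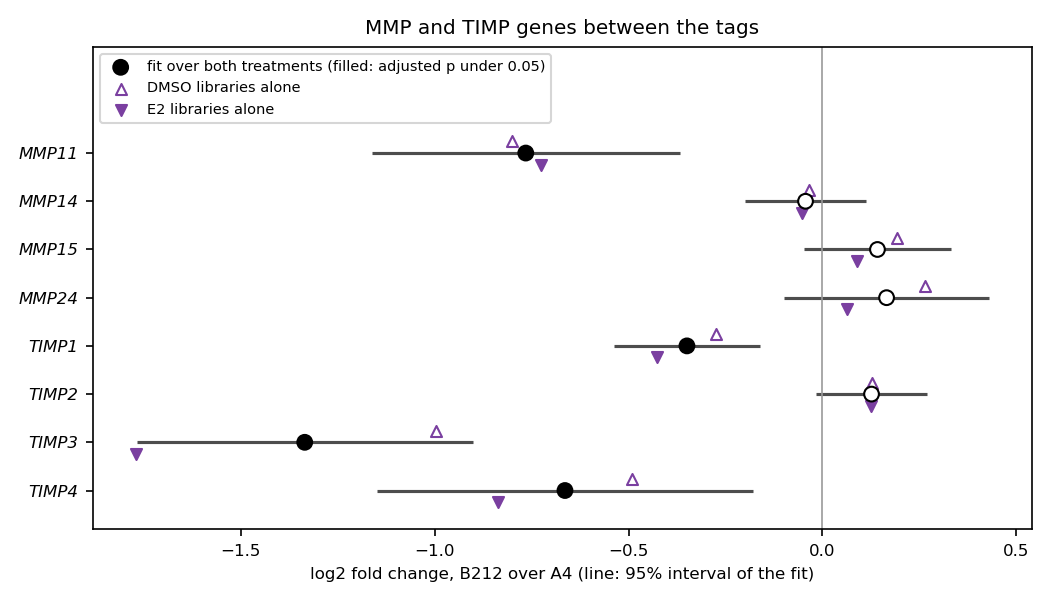
Log2 fold change of B212 over A4 for the 8 tested genes. Circles give the fit over both treatments with its 95% interval, filled where the edgeR adjusted p is under 0.05, and triangles give the DMSO and the E2 libraries alone. TIMP3 lies furthest from 0 at -1.34, and the intervals of MMP14, MMP15, MMP24 and TIMP2 span 0.

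TIMP3 was the one member called both by DESeq2 and without each library in turn. DESeq2 also called TIMP1, and gave adjusted p-values of 0.0619 for MMP11 and 0.222 for TIMP4. With 3 libraries the treatment term leaves no residual degrees of freedom, so it was dropped when a library was left out, and the lone library of a tag was assumed to vary like the others. MMP11 lost its call without the A4 DMSO library (-0.62, edgeR adjusted p 0.106) and without the B212 E2 library (-0.66, 0.0843). TIMP1 lost it without the B212 E2 (-0.28, 0.346), B212 DMSO (-0.44, 0.0903) and A4 E2 (-0.35, 0.0576) libraries. TIMP4 lost it without any 1 of the 4, with log2 fold changes of -0.53 to -0.80, and with no treatment term alone (-0.67, edgeR adjusted p 0.0666).

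The E2 comparison asked which members differed after hormone in Y537S cells. Fitted without a block, edgeR called 0 of the 8 members and 0 of all 15599 genes (0% of genes, all 8 members at an adjusted p of 0.9999). At an unadjusted p under 0.05 there were 0 members and 150 genes, DESeq2 called 0 members and 1 gene, and limma-voom called 0 of each. These fits leave the difference between the tags in their spread. By edgeR the biological coefficient of variation, a measure of spread between libraries, was 32.2% without the block and 5.99% with it. Blocked on tag, edgeR called 3 members, TIMP2, MMP15 and MMP14, and each of them was lower with E2. By that rule 9.56% of all genes were called, 6.13% higher and 3.44% lower. The median log2 fold change was -0.25 over the 8 members and -0.0081 over all genes. With library size alone the split over all genes in the blocked fit was 911 higher and 775 lower, where TMM gave 956 and 536.

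TIMP2 had 10067 counts with DMSO and 9302 with E2 in A4, against 12829 and 9061 in B212. As CPM it went from 137.5 to 113.4 and from 150.3 to 123.6, so both E2 libraries were below both DMSO libraries. The log2 differences were -0.28 in A4 and -0.28 in B212. The blocked fit gave -0.28 ± 0.068 (SE), with an edgeR adjusted p of 0.0151. MMP14 went from 55.5 to 47.3 CPM in A4 and from 54.2 to 45.6 CPM in B212, log2 differences of -0.23 and -0.25. Its blocked value was -0.24 ± 0.074 (SE), with an edgeR adjusted p of 0.0450. MMP15 went from 16.5 to 13.7 CPM in A4 and from 18.8 to 14.6 CPM in B212, log2 differences of -0.26 and -0.37. Its blocked value was -0.32 ± 0.091 (SE), with an edgeR adjusted p of 0.0340. The treatments did not overlap for these 3 members, and they did not overlap for 25.0% of all genes tested.

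Transcript length and GC content moved with the blocked E2 result. Genes called lower had a median length of 5059 bases and a median GC content of 56.2%, against 2124 bases and 43.1% for genes called higher and 3317 bases and 49.0% for those not called. MMP14 (3732 bases, 58.9% GC), MMP15 (4250 bases, 66.0% GC) and TIMP2 (3652 bases, 53.7% GC) were above both medians of the genes not called. Each was shorter than the median of the genes called lower. With a smooth trend on length and GC content removed from each library, 0 members were called in the blocked fit. TIMP2 was then at -0.19 (edgeR adjusted p 0.0513), MMP15 at -0.17 (0.273) and MMP14 at -0.12 (0.272). With DESeq2 size factors or DESeq2 itself only TIMP2 was called. Among the members DESeq2 gave an adjusted p only for TIMP2 (0.030) and MMP14 (0.109). It gave none for MMP11, MMP15, MMP24, TIMP1, TIMP3 and TIMP4, so these could not be called.

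The other 5 tested members were not called for E2 in either fit. MMP11 had log2 differences of -0.28 in A4 and -0.21 in B212, with a blocked value of -0.25 (95% interval -0.65 to 0.15). MMP24 had -0.032 and -0.23, with a blocked value of -0.13 (-0.40 to 0.13) that turned to 0.014 with the trend removed. TIMP1 had 0.020 and -0.13, and TIMP4 0.29 and -0.061. TIMP3 had -0.16 in A4, with a counting interval of -0.45 to 0.14, and -0.93 in B212, with one of -1.44 to -0.44. Its blocked value was -0.46 ± 0.21 (SE), with an edgeR adjusted p of 0.166. With 1 library per tag and treatment, whether the tags differ in their response could not be tested. From the counts alone the TIMP3 difference between the tags, -0.77, had a 95% interval of -1.34 to -0.21, which covers counting error only.

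**Figure D3:**
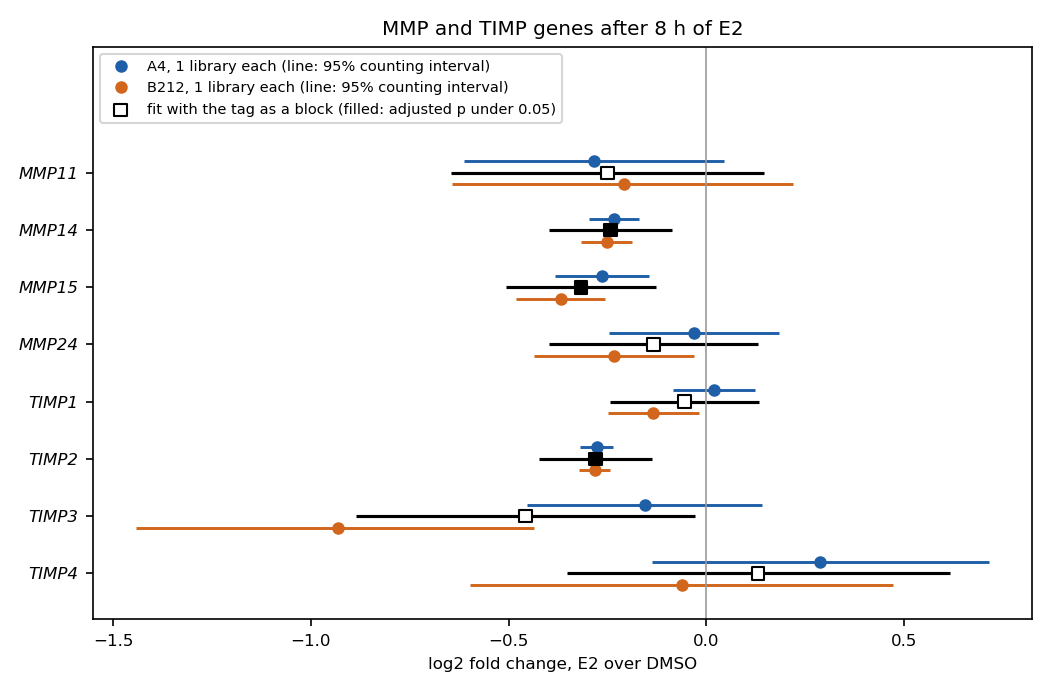
Log2 fold change of E2 over DMSO for the 8 tested genes. Coloured circles give each tag with its 95% counting interval, and squares give the blocked fit with its 95% interval, filled where the edgeR adjusted p is under 0.05. The values of A4 and B212 are -0.28 and -0.28 for TIMP2, -0.23 and -0.25 for MMP14, -0.26 and -0.37 for MMP15, -0.28 and -0.21 for MMP11 and -0.16 and -0.93 for TIMP3.

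Of the remaining MMP genes, 13 of 17 fell under the count filter and 4 were tested, MMP10, MMP16, MMP17 and MMP25. Between the tags 1 was called higher and 2 lower, beside 25.2% and 25.8% of all genes. MMP16 (MT3-MMP, another membrane-type enzyme) had 47 and 44 counts in A4 and 532 and 445 counts in B212, a log2 fold change of 3.39 ± 0.17 (SE) with an edgeR adjusted p of 2.09e-12. MMP10 (stromelysin-2) was lower by a log2 fold change of -1.05, from 41 and 38 counts to 20 and 19. MMP17 (MT4-MMP, held at the membrane by a lipid anchor) was lower in B212 at -0.35 in the fit over both treatments. The difference was -0.67 between the DMSO libraries and -0.047 between the E2 libraries (counting interval -0.10 to 0.0078). In the blocked E2 fit 1 of the 4 was called, beside 9.56% of all genes. MMP17 rose from 59.6 to 69.4 CPM in A4 and from 37.6 to 67.2 CPM in B212, a blocked log2 fold change of 0.53 ± 0.10 (SE) with an edgeR adjusted p of 0.00419. It was 0.59 after removal of that trend, again past the threshold. So MMP17, MMP14 and MMP15, the membrane-type enzymes called in the blocked fit, had values of 0.53, -0.24 and -0.32. MMP14 and MMP15 were not called with that trend removed. MMP24 at -0.13, MMP16 at -0.091 and MMP25 at 0.48 were not called in the blocked fit.

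Of 18 genes that activate, inhibit or clear MMPs 16 were tested, and 2 were called higher and 11 lower in B212, with a median of -0.52. Over all genes tested 25.2% were called higher and 25.8% lower, with a median of 0.0042. SERPINE2 (protease nexin-1, a serine protease inhibitor) was 5.57-fold lower in B212, a log2 fold change of -2.48 ± 0.13 (SE). PLAU (urokinase) differed by -1.71, THBS1 (thrombospondin-1) by -1.46 and CD44 (the hyaluronan receptor, which docks MMPs at the surface) by -1.14. The largest edgeR adjusted p of these 4 was that of THBS1, 1.15e-10. RECK, a membrane-anchored MMP inhibitor, differed by 0.13 and BSG, an inducer of MMPs, by 0.012, and neither was called. In the blocked E2 fit 2 of the 16 rose and 1 fell, where 6.13% of all genes rose and 3.44% fell. THBS1 rose by 0.61 ± 0.094 (log2, SE) and PLAT (tissue plasminogen activator) by 0.51 ± 0.094, with edgeR adjusted p-values of 9.12e-04 and 0.00307. By tag, THBS1 rose by 0.36 in A4 and 0.87 in B212, and PLAT by 0.26 and 0.75. The difference between the tags was 0.51 for THBS1 (95% counting interval 0.49 to 0.54). For PLAT it was 0.48 (0.38 to 0.58), and neither difference was tested. FURIN, the convertase that removes the propeptide of membrane-type MMPs and MMP11, fell by 0.28 ± 0.073 on the log2 scale (adjusted p 0.0208), and was at -0.13 (0.220) with the trend removed.

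The ADAM and ADAMTS proteases, relatives that shed surface proteins or cut proteoglycans, had 23 of 28 genes tested. Between the tags 5 were called higher and 11 lower in B212, beside the same 25.2% and 25.8% of all genes, with a median of -0.18. ADAMTS9 had 178 and 242 counts in A4 and 15 and 24 in B212, a log2 fold change of -3.44 ± 0.25 (SE). ADAMTS5 (aggrecanase-2) differed by -1.77, ADAMTS7 by -1.36 and ADAMTS12 by -1.03, while ADAMTS13 differed by 1.17 and ADAMTS15 by 1.13. The largest edgeR adjusted p of these 6 was that of ADAMTS13, 7.10e-04. In the blocked E2 fit 0 rose and 5 fell, against 6.13% and 3.44% of all genes. The 5 were ADAM19 (-0.44), ADAMTS7 (-0.43), ADAMTS18 (-0.36), ADAMTS5 (-0.35) and ADAM10 (-0.30). Of these, ADAMTS7 (-0.23, edgeR adjusted p 0.219) and ADAMTS18 (-0.27, 0.0573) were not called with the trend removed, and ADAM19 moved to -0.29 (0.0381). ADAMTS5 was not called with DESeq2 size factors (-0.35, edgeR adjusted p 0.0515), and DESeq2 gave no adjusted p for ADAMTS5, ADAMTS7 or ADAMTS18.

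**Figure D4:**
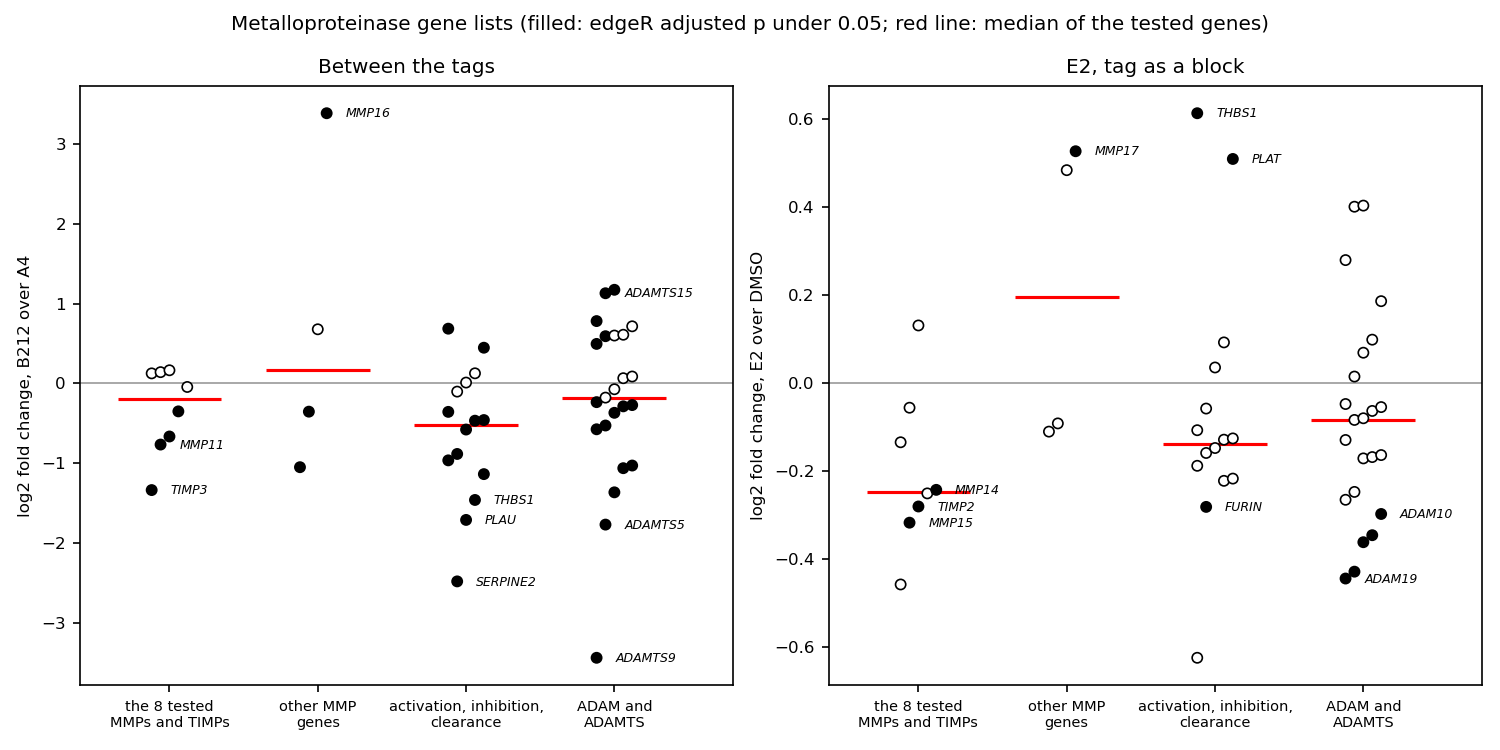
Log2 fold changes of the 8 tested MMPs and TIMPs and of the tested genes of the 3 related lists, between the tags (left) and for E2 in the blocked fit (right). Filled points have an edgeR adjusted p under 0.05, and red lines give the median of all tested genes of each list, 1 of which is not shown, -0.52 between the tags for the activation, inhibition and clearance genes and -0.25 for E2 in the 8 members.

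Some members share their locus with another gene in GENCODE 29. TIMP1, TIMP3 and TIMP4 each lie within a synapsin gene on the opposite strand, SYN1, SYN3 and SYN2. SYN1 had 121 to 147 counts, SYN2 4 to 17 and SYN3 0 in every library. SYN1 was not called between the tags (0.079, edgeR adjusted p 0.745). CEP295NL, within TIMP2 on the same strand, had 2 to 4 counts. MMP24-AS1, a synonym of MMP24OS in RefSeq, is antisense to MMP24 and had 492, 545, 1007 and 675 counts (A4 DMSO, A4 E2, B212 DMSO and B212 E2), more than MMP24 in every library. It was higher in B212 by 0.64 ± 0.11 (log2, SE), with an edgeR adjusted p of 9.07e-05. CHCHD10, which overlaps MMP11 in part on the opposite strand and was looked up after the values were seen, had 1819 to 2395 counts. The strand setting of the counting is not given in the sources used here, so reads of MMP24 and MMP11 cannot be told apart from those of their antisense partners where they overlap.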

How the data were processed

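Stranded poly(A) libraries were made from 500 ng of RNA each, per the labels' protocols. The values deposited by the authors were raw read counts per gene symbol. Per the submitters' processing notes, HISAT2, SAMtools, featureCounts and DESeq2 were used with hg19; versions, annotation and strand setting are not given in the sources used here. The table's other 4 columns with values of single samples have no sample among the labels and were not used.

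The filterByExpr function of edgeR 4.0.16 (minimum count 10) kept 15599 genes, and libraries were scaled by TMM. The quasi-likelihood test of edgeR was run on E2 against DMSO, without a block, and on the tags, with treatment as a covariate, with Benjamini-Hochberg adjustment over all genes tested and a threshold of 0.05. Each SE was derived from F and the fold change. Intervals within a tag are exact conditional ones, and those of the difference between tags normal ones; both are 95% intervals and cover counting error only. Libraries of 1 tag deviated together from their treatment means (Pearson r = 0.923 across genes); the labels give each clone both treatments, and columns were paired by tag. The blocked fit is printed where it changes a call. No pair of libraries was a repeat of 1 library within sampling noise (chi-square per degree of freedom 27.5 to 221). Length and GC content came from 1 GENCODE 29 transcript per symbol, found for 93.5% of tested genes, and the trend was fitted with mgcv 1.9.3. Alternatives used DESeq2 1.42.0 and limma 3.58.1 (voom), with R 4.3.3; figures used matplotlib 3.10.9. The fits were tested on simulated data.

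The members and gene lists were chosen with earlier results of these data known. From the lists, the text names genes past the threshold between the tags whose log2 fold change reached 1 in size with a mean of at least 50 counts, those called for E2 with the block, and the genes that overlap members. MMP10, MMP25, RECK, BSG and CHCHD10 were named after their values were seen. Results of 2 genes on the lists are not reported here.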

Additional observations from a re-analysis of the deposited data

Results flagged for a closer look

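TIMP1 and TIMP4 went in opposite directions with E2 in the A4 and B212 libraries. The difference between the tags was not tested, as there was 1 library for each tag and treatment. TIMP1 had a log2 difference of 0.0196 in A4 and -0.134 in B212, and the counting interval of the difference ran from -0.31 to 0.00043. TIMP4 had 0.286 in A4 and -0.0606 in B212, from 56 to 112 counts per library, with a counting interval of the difference from -1.0 to 0.31. Both intervals include 0.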

How the results depend on the processing

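With no block, the counts of 0 members and 0 genes for E2 held under the other scalings, both filters and limma-voom. DESeq2 without the block called 1 gene. Each of these fits kept the difference between the tags in its spread, so these counts do not show that E2 had no effect. A replicate block on tag gave 1492 genes and 3 members, limma-voom with the block 1138 and 2, library size only with the block 1686 and 3, and DESeq2 size factors with the block 717 (455 higher, 262 lower) and 1. DESeq2 with the block gave 562 (376 higher, 186 lower) and 1, with an adjusted p only for TIMP2 and MMP14 among the members. The length and GC trend removed with the block gave 901 (631 higher, 270 lower) and 0 members. MMP24 then reversed to 0.014. For these changes among blocked fits the cause was not tested. Leaving out 1 library unbalances the tags and reversed 8 E2 values, whose ranges with no block were -0.68 to 0.20 (MMP11), -0.26 to 0.00038 (MMP24), -0.29 to 0.15 (TIMP1), -1.53 to 0.26 (TIMP3), -0.34 to 0.51 (TIMP4), -0.25 to 1.59 (THBS1), -1.51 to 0.79 (ADAMTS5) and -1.28 to 0.41 (ADAMTS7). Between the tags, the 7950 genes became 4456 with no treatment term and 1723 with log2 fold changes of 1 or more in size, which left 1 member, TIMP3. DESeq2 called 2 members. Leaving out 1 library, with no treatment term since that fit could not otherwise be made (an alternative chosen after seeing the data), gave 3094 to 5639 genes and 1 to 2 members. Under it MMP14 ranged from -0.20 to 0.079, MMP15 from -0.075 to 0.32 and TIMP2 from -0.047 to 0.27, so each reversed. MMP14 also reversed with library size only (0.023) and with the trend removed (0.017). Mean CPM of each of the 10 members moved by less than its SD with library size only. Depth limits MMP2, MMP7, TIMP3, TIMP4 and MMP11, with at most 191 counts in a library.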

Other observations

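The shares of TIMP2 and TIMP1 within the TIMP group did not overlap between the tags. For levels, the tags did not overlap in 67.5% of all genes tested. Shares of 1 sum are tied to each other, and TIMP2 itself was not called between the tags. Summed over the 4 TIMPs in CPM per kilobase, TIMP2 made up 66.3% in the DMSO library of A4, 61.5% in its E2 library, and 72.6% and 70.6% in those of B212, and TIMP1 made up 31.5% and 35.9% in A4 and 26.1% and 28.1% in B212. The ratio of TIMP2 to MMP14 per kilobase was 2.53 and 2.45 in A4 and 2.83 and 2.77 in B212. The ratio of summed TIMPs to summed MMPs of the 10 genes was 2.73 and 2.84 in A4 and 2.72 and 2.78 in B212, and here the tags overlapped. MMP14 took 69.8% to 71.5% of the summed MMPs of the 10 genes in every library. The sums leave out MMP17, which is not among the 10 genes and was above MMP14 in every library. MMP17 had 24.7 and 28.8 CPM per kilobase in A4 (DMSO, then E2) and 15.6 and 27.9 in B212. MMP14 had 14.9 and 12.7 in A4 and 14.5 and 12.2 in B212. The shares and ratios thus do not describe all MMP mRNA. They use 1 transcript length per gene and were not tested.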
